A study of Mus musculus with 24 samples.

Results

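Mouse morulae in which Cas9 had been aimed at Ttf1 were compared with morulae in which it had been aimed at Zfp622, across all genes. The comparison used 8 of the 24 libraries of the series, chosen by their titles: Ttf1_KO_Mor 1 to 4 and Zfp622_KO_Mor 1 to 4. Each library held polyadenylated RNA from a pool of 10 embryos, and 4 wild-type morula libraries gave the reference level of each gene. Zygotes came from superovulated B6D2F1 females, 3 to 4 weeks old, that had been mated with B6D2F1 males. Cas9 protein and a mix of 3 guide RNAs per gene were injected into the cytoplasm of the knockout zygotes, which then grew in KSOM medium. The series' design text describes 1 injection and culture procedure for gene knockout, and neither it nor the labels say whether wild-type embryos were injected. The share of edited cells per embryo is not given either, so each library averages 10 embryos that may carry different edits. The genotype field of the 4 Zfp622 libraries counts upward to other gene names, and the groups follow the titles.

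Both targeted genes serve the making of ribosomes, at opposite ends of the path. Ttf1 encodes a nucleolar protein that binds terminator elements behind the ribosomal RNA genes, where it stops RNA polymerase I and also acts in remodelling of the gene's promoter. Zfp622 encodes the mammalian relative of a yeast cytoplasmic factor that acts in the last steps of maturation of the large subunit. Failing ribosome production is known to activate p53 through free ribosomal proteins that bind Mdm2. The morula is the stage at which blastomeres flatten against each other and the outer cells begin to diverge from the inner ones, shortly before the blastocyst forms.

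Total counts ran from 14420604 to 15479299 in the Ttf1 knockout, from 12690369 to 14448490 in the Zfp622 knockout and from 14363767 to 17807596 in wild type. All Ttf1 knockout libraries carry lane 1 in the names of their alignment files and all Zfp622 knockout and wild-type libraries lane 2, so in every result below the knockout and the lane cannot be told apart. On the first principal component of the 12 morula libraries (45.5% of the variance) the wild-type libraries lay between -55.4 and -48.9, the Ttf1 knockouts between 18.3 and 47.6 and the Zfp622 knockouts between 9.6 and 41.8, so the knockouts overlapped. Pearson's r across genes between a Ttf1 and a Zfp622 knockout library had a median of 0.977, against 0.977 within the Ttf1 and 0.978 within the Zfp622 knockouts. Levels are given in CPM, read counts normalised to library size with TMM scaling; fold changes are log2 values, Ttf1 minus Zfp622 knockout, so that a negative value is lower in the Ttf1 knockout. A gene was called at an edgeR adjusted p of at most 0.05.

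The targeted genes were looked at first. Ttf1 (ENSMUSG00000026803, chromosome 2, 29060262 to 29087656 of GRCm38, plus strand) stood at 24.6, 27.2, 23.9 and 25.9 CPM in the 4 Ttf1 knockout libraries and at 40.2, 47.1, 48.8 and 57.1 CPM in the Zfp622 knockouts. Every Ttf1 knockout library lay below every other morula library, wild type included (43.1 ± 1.5 CPM, SD, n = 4). The log2 fold change was -0.93 (SE 0.10), with an adjusted p of 0.00041. Zfp622 (ENSMUSG00000052253, chromosome 15, 25984366 to 25998481, plus strand) stood at 31.7, 48.1, 52.6 and 49.0 CPM in the Ttf1 knockouts and at 17.6, 16.98, 19.9 and 6.09 CPM in the Zfp622 knockouts. Its groups did not overlap either, and the fourth Zfp622 library held less of it than the others. The log2 fold change of Zfp622 was 1.58 (SE 0.28, 95% interval 0.95 to 2.2), but its adjusted p was 0.0592 and it was not called; DESeq2 gave an adjusted p of 0.000292. Zfp622 passed the threshold in 5 of 20 other settings of the model, scaling, filter or libraries, among them without Ttf1 library 1 (adjusted p 0.0268) and without Zfp622 library 4 (adjusted p 0.000716). In these pooled embryos fewer cells that carry a transcript and less of it per cell cannot be told apart, and the level of the protein was not measured.

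Few genes separated the knockouts. Of 14865 genes tested, 34 were called (0.229%): 19 were higher in the Ttf1 knockout (0.128%) and 15 lower (0.101%). All 8 of these that differed at least 2-fold were higher in the Ttf1 knockout. The same fit called 5833 genes between the Ttf1 knockout and wild type (39.2%) and 4322 between the Zfp622 knockout and wild type (29.1%), comparisons that share the wild-type libraries. For 76.4% of the genes the 95% interval of the difference between the knockouts lay within 2-fold in both directions, and for 95.6% of the 8987 genes at 5 CPM or more. The median absolute log2 fold change was 0.17 and the median width of the interval to either side 0.40. A p under 0.05 before adjustment, here termed nominal, was reached by 1959 genes (13.2%). Of these 1029 were nominally higher (6.92%) and 930 nominally lower (6.26%), and in 919 genes (6.18%; 3.29% higher and 2.89% lower) the 4 libraries of one knockout did not overlap the 4 of the other, all 34 called genes among them. Nothing in the labels ties the libraries to separate litters or injection days, so the p-values measure the spread between these pools.

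The number of calls moved with the method and with single libraries. DESeq2 called 323 genes (2.17%), among them 32 of the 34; the other 2, Ccnb3 and A730046J19Rik, had no adjusted p in DESeq2. With libraries scaled by total counts alone the split moved from 19 higher of 34 to 11 higher of 27. Leaving out a single library gave 150 calls without Ttf1 library 1 and 119 without Zfp622 library 4. It gave 3, 2 and 15 calls without Ttf1 libraries 2, 3 and 4, and 4, 14 and 7 without Zfp622 libraries 1, 2 and 3. Without wild-type libraries 3 and 4, which enter the estimate of the spread, it gave 14 and 17. The names of the alignment files of these wild-type libraries carry a second number before the lane, unlike those of the other morula libraries. Its part in the calls was not tested. In the 20 settings that changed the model, the scaling, the filter or the libraries, all 34 genes kept their direction. The knockouts did not overlap in any of these genes, so the direction could hardly turn and is no separate result. Only Ttf1 and Usp14 were called in each of the 20 settings. Both differed by less than 2-fold, so a fold threshold of 2 at the same adjusted p removed them and kept 8 genes. Every other gene called lost its call without Ttf1 library 3. Of the 34 genes, 20 were called in at least 10 of the 20 settings, and the fewest calls were those of Ago4, in 4.

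**Figure D1:**
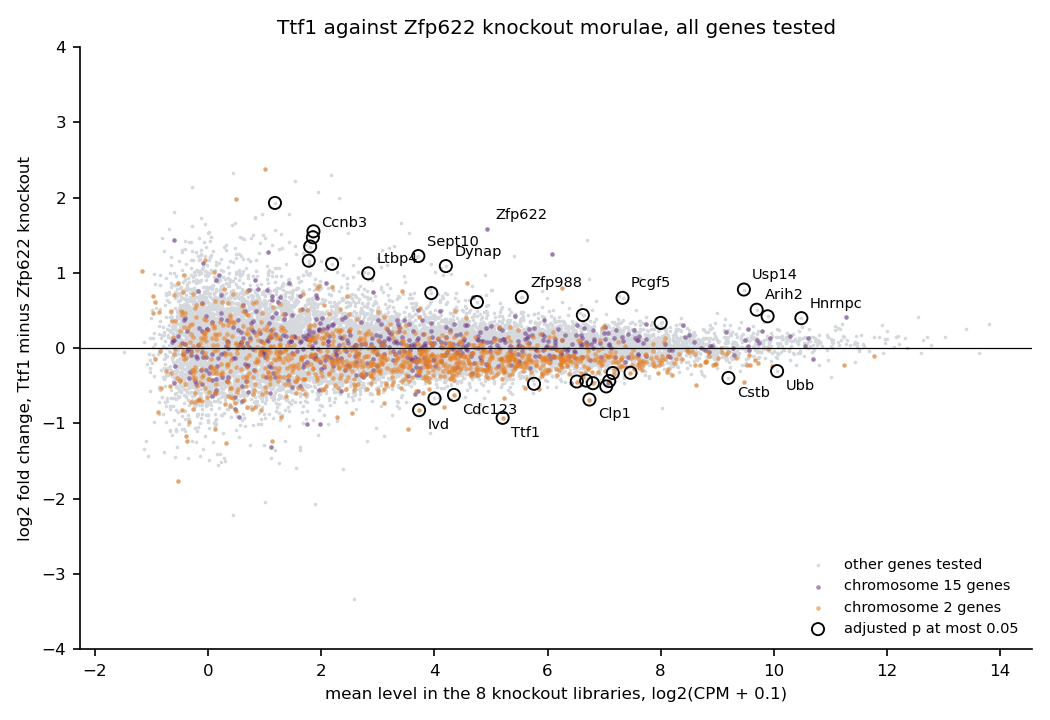
Log2 fold change between Ttf1 and Zfp622 knockout morulae (vertical axis) against the mean level in the 8 knockout libraries, as log2(CPM + 0.1) (horizontal axis), for the 14865 genes tested. Chromosome 2 genes are orange, chromosome 15 genes purple, and the 34 called genes ringed; the orange points lie mostly below 0, and Zfp622 at 1.58 carries no ring.

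Among genes of ubiquitin and protein turnover, Usp14, the deubiquitinase that sits on the proteasome and trims ubiquitin chains from its substrates, had the smallest p of all genes. Usp14 (ENSMUSG00000047879, chromosome 18, 9993066 to 10045119, minus strand) stood at 902.8, 1047, 792.2 and 843 CPM in the Ttf1 knockouts. It stood at 519.8, 531.3, 509.8 and 530.7 CPM in the Zfp622 knockouts, and at 655.2 ± 20.1 CPM (SD, n = 4) in wild type. The lowest Ttf1 knockout library was far above the highest Zfp622 knockout library, and all wild-type libraries lay between the 2 groups. Usp14 differed by 0.78 (SE 0.07, 95% interval 0.62 to 0.93), adjusted p 9.46e-05. Against the shared wild-type libraries Usp14 was higher in the Ttf1 knockout (0.45, adjusted p 0.000189) and lower in the Zfp622 knockout (-0.33, adjusted p 0.0036). Reads were counted without regard to strand, and Thoc1 on the opposite strand overlaps Usp14, so reads of the overlap cannot be told apart. Thoc1 itself had a mean of 147 CPM, well below Usp14.

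Arih2, a ubiquitin ligase that works together with cullin complexes, was also higher in the Ttf1 knockout. Its levels were 865.2, 950.6, 984.2 and 1100 CPM there and 751.7, 630.7, 712.9 and 644.8 CPM in the Zfp622 knockout, with wild type at 861 ± 70.4 CPM. The knockouts did not overlap, and it was the Zfp622 knockout that lay apart from wild type. Arih2 differed by 0.51 (SE 0.08), adjusted p 0.0183, made up of -0.33 for the Zfp622 knockout against wild type (adjusted p 0.00639) and 0.18 for the Ttf1 knockout (adjusted p 0.0928). The polyubiquitin gene Ubb, one of the cell's sources of ubiquitin, was lower in the Ttf1 knockout, at 953 ± 61.3 against 1179 ± 29.6 CPM, with wild type at 1303 ± 55.8 CPM. Its log2 fold change was -0.31, adjusted p 0.0403. Ubb was outside the rule by which the other genes were named and was chosen after its values were seen. Cstb, which encodes cystatin B, an inhibitor of lysosomal cysteine proteases, stood at 516.7, 520.7, 505.8 and 483.8 CPM in the Ttf1 knockout. The Zfp622 knockout held 686, 686.4, 593.3 and 703.9 CPM of Cstb, and the wild-type mean lay between at 582 ± 42.4 CPM. The lowest of the Zfp622 libraries was still above every Ttf1 library, and the log2 fold change was -0.40, adjusted p 0.0268.

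Called genes for RNA-binding and chromatin proteins also went in both directions. The lower ones, Clp1, Rae1 and Cdc123, all lie on chromosome 2, where 73.8% of the tested genes were below 0. The higher ones, Hnrnpc, Ptbp3, Ago4, Pcgf5 and Zfp988, lie on other chromosomes. Hnrnpc, which encodes a core protein of nuclear pre-mRNA particles, reached 1519, 1637, 1790 and 1580 CPM in the Ttf1 knockout and 1153, 1304, 1209 and 1289 CPM in the Zfp622 knockout. Wild type stood at 1407 ± 40.6 CPM, and all 4 wild-type libraries lay in the gap between the knockouts. Between the knockouts Hnrnpc differed by 0.40 (SE 0.06), adjusted p 0.0183, with 0.21 for the Ttf1 knockout against wild type (adjusted p 0.0128) and -0.18 for the Zfp622 knockout (adjusted p 0.0364). Ptbp3, a regulator of alternative splicing, stood at 113 ± 9.12 against 83.7 ± 4.50 CPM (0.44, adjusted p 0.0323), with wild type at 89.3 ± 5.88 CPM. Ago4, an Argonaute protein that carries small RNAs, stood at 32.5 ± 5.48 against 21.2 ± 2.18 CPM (0.61, adjusted p 0.0428), with wild type at 24.1 ± 0.333 CPM. In both of these genes the wild-type mean was nearer to the Zfp622 knockout.

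Pcgf5, a subunit of a variant polycomb repressive complex, stood at 169.6, 186.3, 235.7 and 195.1 CPM in the Ttf1 knockout. The Zfp622 knockout held 97.1, 131.2, 127.3 and 140 CPM and wild type 85.5 ± 2.74 CPM. The groups were ordered without overlap, Ttf1 knockout above Zfp622 knockout above wild type. The log2 fold change of Pcgf5 between the knockouts was 0.67 (SE 0.11), adjusted p 0.0183, and both knockouts were called above wild type, by 1.20 and 0.54. The zinc finger gene Zfp988 showed 51.3, 51.3, 63.9 and 63.0 CPM in the Ttf1 knockout and 30.7, 39.5, 33.0 and 40.3 CPM in the Zfp622 knockout. Wild type held 32.5 ± 0.498 CPM, next to the Zfp622 knockout, and the log2 fold change was 0.68 (adjusted p 0.0183). Zfp988 lies among near-identical zinc finger genes on chromosome 4 and reads that matched several places were not counted, so its level is uncertain.

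Clp1, which encodes an RNA kinase of messenger 3′ end formation and transfer RNA splicing, was lower in the Ttf1 knockout, at 66.4, 77.8, 95.4 and 88.4 CPM. The Zfp622 knockout held 115.6, 148, 140.2 and 123.1 CPM and wild type 166 ± 24.6 CPM. The order was the reverse of that of Pcgf5, with wild type highest on average. Clp1 had a log2 fold change of -0.68 (SE 0.12), adjusted p 0.0323. Rae1, which acts in export of messenger RNA and at the spindle, stood at 77.5 ± 7.05 against 105.5 ± 6.21 CPM (-0.44, adjusted p 0.0323), below 138 ± 8.47 CPM in wild type. Cdc123, an assembly factor of the translation initiation factor eIF2, stood at 17.3, 15.5, 13.2 and 17.7 CPM against 27.8, 23.6, 22.3 and 24.5 CPM (-0.62, adjusted p 0.0398). Cdc123 shares an overlap with Nudt5 on the opposite strand.

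Of the genes for mitochondrial proteins and metabolism, the called ones went in both directions. Ivd, Ckmt1 and Uqcc1, all lower, lie on chromosome 2, and the others named here on other chromosomes. Sfxn4, a sideroflexin of the inner mitochondrial membrane, stood at 21.7, 19.9, 19.2 and 15.7 CPM in the Ttf1 knockout and at 12.5, 9.88, 13.2 and 10.4 CPM in the Zfp622 knockout. Both groups were well above wild type (4.57 ± 0.326 CPM) and did not overlap. The log2 fold change of Sfxn4 was 0.73 (SE 0.14), adjusted p 0.0378. Tmem70, an assembly factor of ATP synthase named after its values were seen, was also higher (0.33, adjusted p 0.0489).

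Ivd, isovaleryl-CoA dehydrogenase of leucine breakdown, stood at 9.82, 9.59, 10.3 and 8.29 CPM in the Ttf1 knockout and at 18.6, 14.7, 18.8 and 15.3 CPM in the Zfp622 knockout. The groups did not overlap, and the wild-type mean lay between them at 13.6 ± 2.23 CPM. Ivd had a log2 fold change of -0.83 (SE 0.14), adjusted p 0.0268, the lowest among the called genes after Ttf1 itself. Ckmt1, the mitochondrial creatine kinase, stood at 99.5, 89.7, 90.5 and 94.7 CPM against 150.2, 125.7, 134.8 and 106.9 CPM (-0.47, adjusted p 0.0394), with wild type at 161 ± 6.65 CPM. Slc25a11, the oxoglutarate carrier, stood at 45.3 ± 4.42 against 63.0 ± 3.77 CPM (-0.48, adjusted p 0.0378), and overlaps the more abundant Rnf167. Stoml2, a stomatin-like protein of the inner membrane, stood at 126 ± 6.65 against 159 ± 4.71 CPM (-0.33, adjusted p 0.0403). Uqcc1, an assembly factor of respiratory complex III, chosen after its values were seen, had a log2 fold change of -0.33 (adjusted p 0.0476).

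Castor1, the arginine sensor that restrains mTORC1, was called between the knockouts and between the Zfp622 knockout and wild type. Its levels were 119.6, 119.1, 98.2 and 96.3 CPM in the Ttf1 knockout and 169.6, 159.2, 154 and 134 CPM in the Zfp622 knockout. Wild type, at 105.8 ± 8.27 CPM, overlapped the Ttf1 knockout and lay below every Zfp622 library. Castor1 differed by -0.51 between the knockouts (SE 0.09, adjusted p 0.0342), by 0.54 between the Zfp622 knockout and wild type (adjusted p 0.000567) and by 0.03 between the Ttf1 knockout and wild type (adjusted p 0.81).

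Dynap, Sept10, Ltbp4 and Ccnb3, genes of the cytoskeleton, the cell surface or the cell cycle, were called higher. Of 64 listed mitosis and spindle genes none was called, 11 were nominally lower and 3 nominally higher, with a median of -0.025. Those on chromosome 2 numbered 11, and without them the median was -0.0082. Over all genes 6.26% were nominally lower and 6.92% nominally higher. Rae1, a chromosome 2 gene that also acts at the spindle, was called lower. Dynap, which encodes a dynactin-associated membrane protein, stood at 22.6, 25.2, 25.2 and 26.6 CPM in the Ttf1 knockout, at 10.2, 11.3, 13.7 and 11.6 CPM in the Zfp622 knockout and at 8.18 ± 2.56 CPM in wild type. The Ttf1 libraries were closely grouped and stood clear of the other 8. Dynap thus differed by 1.09 (SE 0.17), adjusted p 0.0183. Sept10, a septin that builds filaments at the cell cortex, stood at 17.4, 16.2, 23.9 and 15.6 CPM against 5.16, 8.72, 7.87 and 9.57 CPM (1.22, SE 0.21, adjusted p 0.0217), with wild type at 4.79 ± 1.24 CPM. Ltbp4, which binds latent TGF-beta in the matrix, stood at 9.06, 11.3, 9.42 and 7.58 CPM against 3.97, 5.87, 4.57 and 4.35 CPM (0.99, SE 0.18, adjusted p 0.0286), with wild type at 3.56 ± 0.23 CPM. In Sept10 and Ltbp4 the knockouts did not overlap. Ccnb3, the cyclin B3 of female meiosis on the X chromosome, stood at 5.45, 5.15, 4.37 and 5.68 CPM against 1.27, 2.08, 2.02 and 2.06 CPM (1.47, SE 0.30, adjusted p 0.0489), with wild type at 0.765 ± 0.458 CPM. It was among the genes of lowest level that were called.

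Of the last genes of the rule, Depdc7, on chromosome 2, was lower at 116 ± 2.79 against 157 ± 14.9 CPM (-0.44, adjusted p 0.0217). AI413582 was lower at 12.3 ± 2.38 against 19.6 ± 1.01 CPM (-0.67, adjusted p 0.0489), and overlaps Hmga1. The other 7 called genes, like Ubb, Tmem70 and Uqcc1, were outside the rule. Among these 7, all chosen after their values were seen, A730046J19Rik on the X chromosome had the largest log2 fold change, 1.93, at 3.44 against 0.899 CPM. The snoRNA Gm24336 had 1.55, at 5.27 against 1.80 CPM, and lies inside Cwf19l1 on the same strand. Atl1, which encodes atlastin, a GTPase that shapes the endoplasmic reticulum, had 1.35, at 4.87 against 1.91 CPM. Atl1 overlaps Sav1 and the more abundant Map4k5 (mean 12.9 CPM) on the opposite strand, and reads were counted without regard to strand. Gm17251 had 1.16 and likewise overlaps the far more abundant Rab11b (mean 65.4 CPM). The log2 fold change of 1500026H17Rik was 1.12, while Gm1821, a pseudogene, had -0.43 and ENSMUSG00000079808, on a scaffold not placed on a chromosome, 0.42. These were low or poorly annotated transcripts apart from the last, at 1087 against 812 CPM, and Gm1821.

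The mean of the wild-type libraries was nearer to the Zfp622 than to the Ttf1 knockout in 30 of the 34 called genes, against 61.0% of all genes tested. It lay between the 2 knockout means in 13 of the 34. The grouping by role above was made for reading and no group was tested. Knockouts without overlap were a condition of the rule that named the called genes, so the absence of overlap is no separate result for them.

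**Figure D2:**
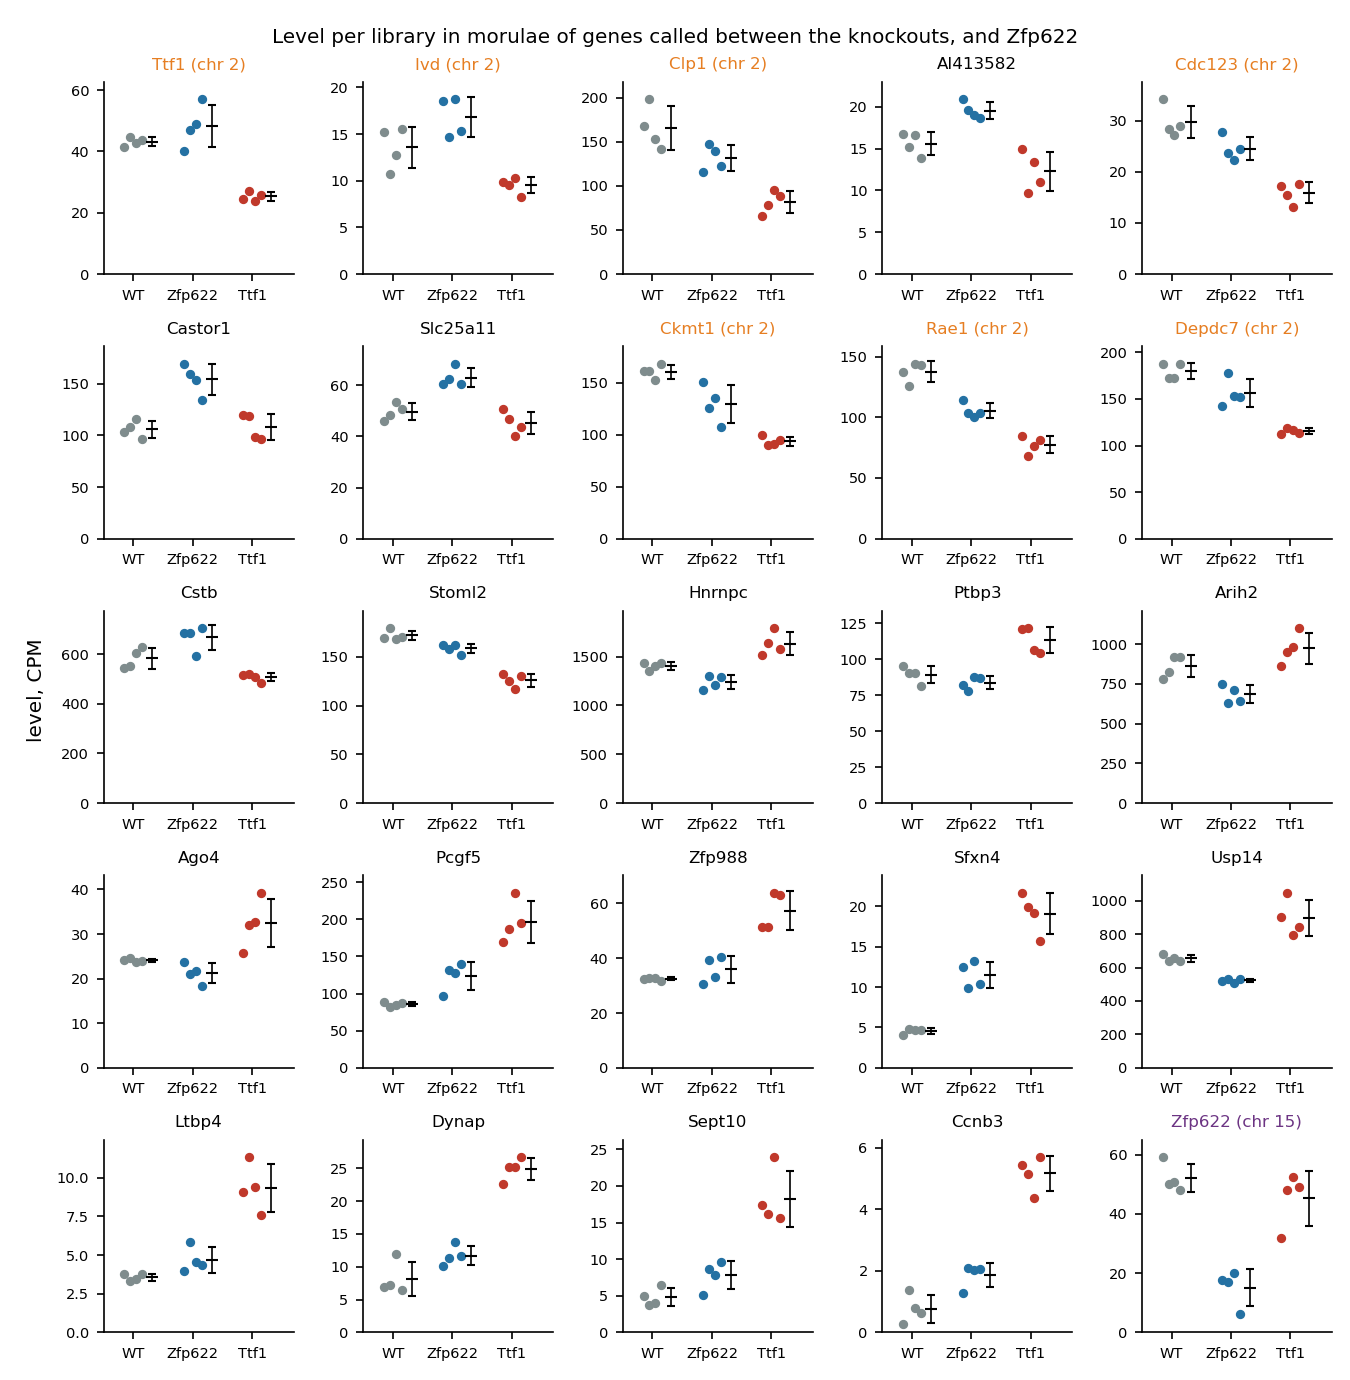
Level in CPM (vertical axes from 0) of the called genes named by the rule and of Zfp622 in the 4 wild-type, 4 Zfp622 knockout and 4 Ttf1 knockout morula libraries, 1 point per library with the mean and SD beside each group; titles of chromosome 2 genes are orange and that of chromosome 15 purple. The points of the 2 knockouts do not overlap, which was a condition of the rule for the called genes. The wild-type points lie closer to the Zfp622 knockout in most.

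Chromosome 2 carries Ttf1, and most of its genes lay below 0 in the comparison. Of 1122 genes tested there, 8 were called (0.713%), all lower: Ttf1, Ivd, Clp1, Cdc123, Ckmt1, Rae1, Depdc7 and Uqcc1. On the 17 autosomes other than 2 and 15, 23 of 12641 genes were called (0.182%). The median log2 fold change on chromosome 2 was -0.14 against 0.0023 over all genes tested, and 828 of its 1122 genes (73.8%) were below 0. Nominally lower were 203 of its genes (18.1%) and nominally higher 23. DESeq2 called 46 of them lower and 1 higher, beside 141 lower and 182 higher of all 14865 genes. On the other 17 autosomes the nominally lower share ran from 3.16% to 8.43% and the median from -0.035 to 0.047. The number of calls on chromosome 2 was 20 without Ttf1 library 1 and 18 without Zfp622 library 4. It was 1 without Ttf1 library 2, 3 or 4 or Zfp622 library 3, 2 without Zfp622 library 1 or 2, and 5, 3 and 4 without wild-type libraries 2, 3 and 4. The median of the genes distal to Ttf1 stayed between -0.20 and -0.12 in all 20 of the settings above.

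The shift of chromosome 2 ran along its whole length. All 19 bins of 10 Mb, measured from Ttf1, had a median below 0, from -0.23 to -0.062. The 951 genes distal to Ttf1 had a median of -0.15 and held 6 of the calls, and the 170 genes proximal to it had a median of -0.092 and held 1, Cdc123. The called genes lay far from Ttf1: Cdc123 at -23.3 Mb, on the proximal side, and Clp1 55.7, Depdc7 75.7, Ivd 89.8, Ckmt1 92.3, Uqcc1 126.8 and Rae1 143.9 Mb to the distal side. Against wild type, the median of the distal genes was -0.16 in the Ttf1 and -0.022 in the Zfp622 knockout.

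A level of the distal stretch was taken per library as the median over its genes of the log2 deviation from the 12-library mean, less the same median over the other autosomal genes. It was -0.0073, -0.206, -0.138 and -0.160 in the Ttf1 knockouts and 0.0425, 0.0706, 0.0223 and 0.0225 in the Zfp622 knockouts. The wild-type libraries stood at 0.0839, 0.0856, 0.0978 and 0.0780, with a mean of 0.0863. Every Ttf1 knockout library was below every other morula library, with the first the nearest to the Zfp622 knockouts. Every Zfp622 knockout library was in turn below every wild-type library, so a level below wild type was not particular to the Ttf1 knockout. The groups differed by -0.167 (two-sided exact permutation test, p = 0.0286, the smallest that 4 against 4 libraries can give). Any 2 groups of 4 that do not overlap give that p. With the level taken over whole autosomes, the knockouts did not overlap on chromosome 2 (-0.1545), nor on chromosomes 9 (0.0478), 13 (0.0434) and 19 (0.0223). The absence of overlap was thus not particular to chromosome 2, where the difference was the largest. The proximal stretch differed by -0.0861 (exact permutation p = 0.0571).

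On chromosome 15, which carries Zfp622, more genes were nominally higher than nominally lower in the Ttf1 knockout. None of its 523 tested genes was called by edgeR, Zfp622 included, while 58 were nominally higher (11.1%) and 16 nominally lower (3.06%). DESeq2 called 9 of the 523 higher and 1 lower, beside 182 higher and 141 lower of all 14865 genes. Over all genes 6.92% were nominally higher and 6.26% lower, and on the 17 autosomes other than 2 and 15 the nominally higher share ran from 5.51% to 9.35%. The level of chromosome 15 as a whole differed by 0.0468 with the knockouts overlapping. Chromosomes 9 (0.0478) and 13 (0.0434) differed by about as much and without overlap. Without Ttf1 library 1 edgeR called 7, and without Zfp622 library 4 it called 6. The median log2 fold change was 0.047, and 0.050 over the 476 genes distal to Zfp622, which became 0.013 when libraries were scaled by total counts alone. Of the 11 bins, 9 had a median above 0. The level of the distal stretch was -0.0024 ± 0.0136 in the Ttf1 and -0.0465 ± 0.0346 in the Zfp622 knockouts, a difference of 0.0441 (exact permutation p = 0.0857).

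**Figure D3:**
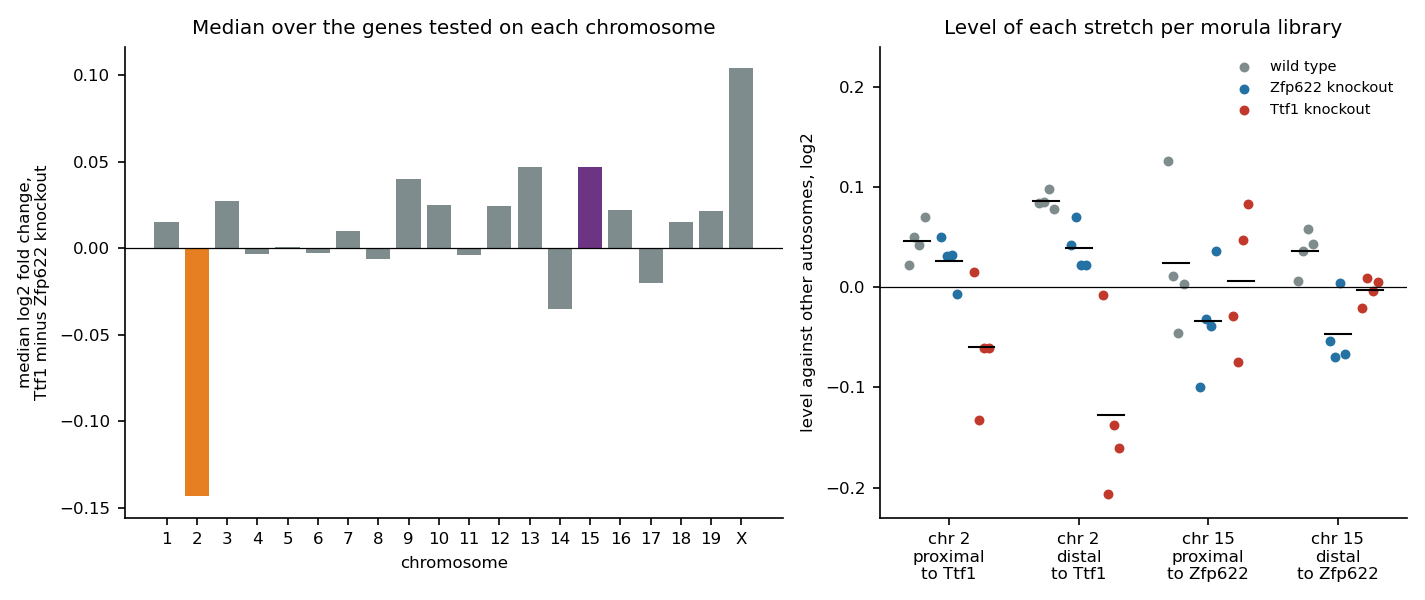
Left, bars give the median log2 fold change, Ttf1 minus Zfp622 knockout, over the tested genes of each autosome and of X, with chromosome 2 (orange, -0.14) the lowest of those drawn and X (0.10) the highest; Y and the mitochondrial genome, with few genes, are not drawn. Right, points give the level of each stretch of chromosomes 2 and 15 per morula library (log2, against the other autosomes) and lines the group means. On the distal stretch of chromosome 2 the Ttf1 knockouts lie below the other 8 libraries, and the Zfp622 knockouts below wild type.

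Genes beside the targets were looked at separately. Of the 10 tested genes within 500 kb of Ttf1 none was called by edgeR and 1, Ak8, was nominally higher, with log2 fold changes from -1.07 in the pseudogene Gm13394 to 0.52 in Ak8. Of the 2 tested neighbours of Zfp622, Myo10 had a log2 fold change of -0.19 and Gm4824 of 0.57, and neither was called or nominal.

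**Figure D4:**
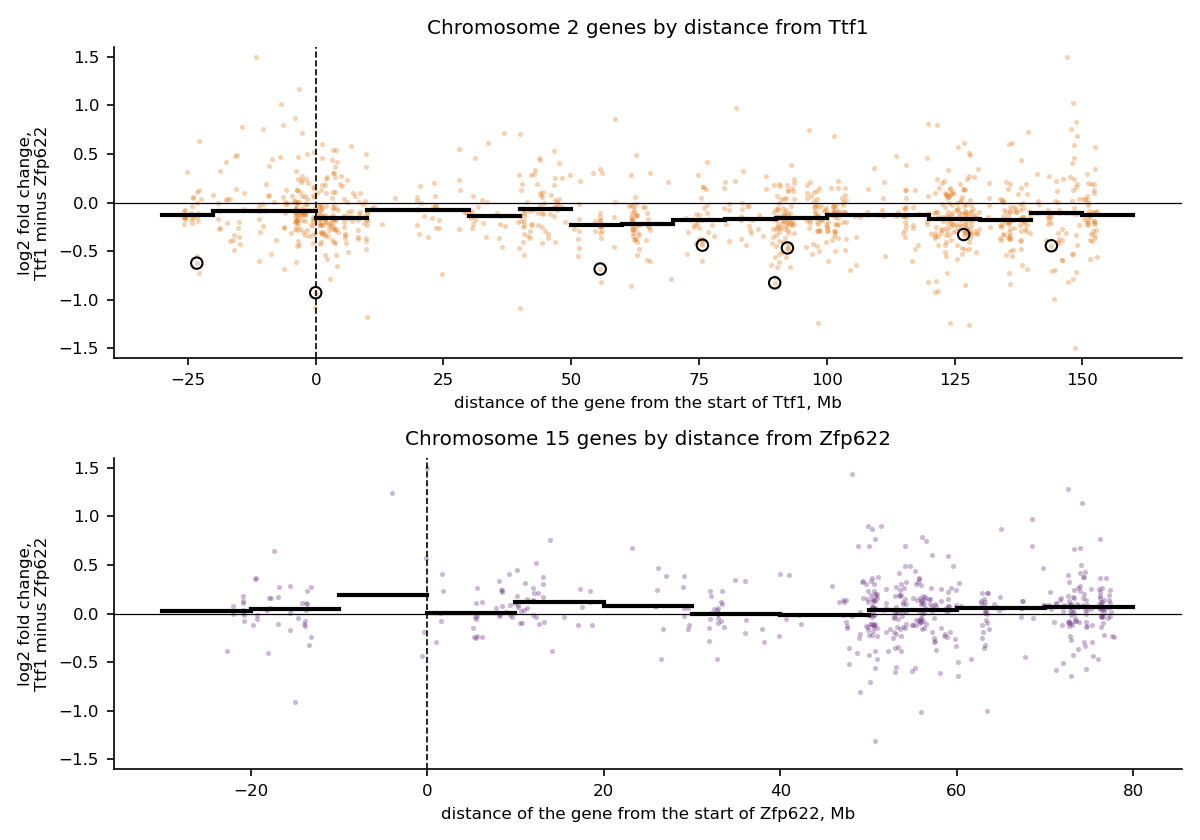
Log2 fold change of each tested gene of chromosome 2 and chromosome 15 (vertical axis, values beyond 1.5 drawn at 1.5) against its distance in Mb from Ttf1 and from Zfp622, with the median of each 10 Mb bin. The bin medians of chromosome 2 run from -0.23 to -0.062, all below 0, and those of chromosome 15 from -0.013 to 0.19.

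The same contrast in late 2-cell embryos, an earlier stage in separate libraries, called 6 of 16770 genes (0.0358%). Ttf1 was lower, at 33.2 ± 4.67 against 90.0 ± 4.81 CPM (-1.44, adjusted p 3.59e-07), and Zfp622 higher, at 184.5 ± 21.7 against 73.9 ± 22.8 CPM (1.32, adjusted p 0.00595). The other called genes were Sp3os (-0.60) and Rps21 (-0.53), both on chromosome 2, and the predicted genes Gm10697 (1.90) and Gm2423 (1.46). Rps21 encodes a protein of the small ribosomal subunit, and Sp3os is an antisense transcript whose reads cannot be told apart from those of its partner. Of the 34 genes called in morulae, 32 were tested at the late 2-cell stage and 1, Ttf1, was called there, while 20 had the same sign. Ltbp4 (0.50) and Arih2 (0.18) were nominally higher there too, and ENSMUSG00000079808 was nominally lower, opposite to the morula (-0.23). For all genes the nominal share at that stage was 8.12%. The 6 calls became 2 without late 2-cell Ttf1 library 1, 2 or 4, 1 without Zfp622 library 4 and 4 without Zfp622 library 3. The level of the distal stretch of chromosome 2 differed by -0.116 at the late 2-cell stage (exact permutation p = 0.114). That of the distal stretch of chromosome 15 differed by 0.0825 (exact permutation p = 0.0571), and the knockouts overlapped on both stretches.

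Gene lists for ribosome production, stress, growth and early lineages held 1139 distinct tested genes. Of these 1 was called, Ttf1 (0.0878%, beside 0.229% of all genes tested), while 191 (16.8%) were nominal against 13.2% of all genes tested. DESeq2 called 2.17% of all genes and 33 of the list members. Without Ttf1 library 1 edgeR called 20 of them, without Zfp622 library 4 it called 16 and without wild-type library 1 it called 2. The lists closest to the targeted genes had medians near 0, beside 0.0023 over all genes. Of all genes 6.92% were nominally higher and 6.26% nominally lower. Among 32 genes of RNA polymerase I and its factors the median was 0.035, with 4 nominally higher and 2 nominally lower, Ttf1 among the latter. With total counts that median was -0.00036. Among 65 nucleolar factors of the large subunit it was 0.036 (5 nominally higher, 7 lower), among 40 late factors of the large subunit -0.0031, and among 66 factors of the small subunit -0.0064 (6 nominally higher, 0 lower). Dcaf13, a small subunit factor on chromosome 15, stood at 373 against 302 CPM (0.31, adjusted p 0.0712). Polr1d, a subunit shared by RNA polymerases I and III, stood at 310 against 265 CPM (0.22, adjusted p 0.147).

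Genes for the cytosolic ribosomal proteins lay slightly above 0. The median was 0.098 over the 50 of the large subunit, 45 of them above 0, and 0.079 over the 33 of the small subunit, 31 of them above 0. None was called by edgeR or DESeq2, and 10 were nominally higher and 2 nominally lower, beside 6.92% and 6.26% of all genes. Of all genes 49.6% lay below 0. The 95% interval of all 50 genes of the large subunit lay within 2-fold. Against wild type the medians of the large subunit genes were 0.25 in the Ttf1 and 0.12 in the Zfp622 knockout. Scaling by total counts, which moved the median of all genes from 0.0023 to -0.032, gave 0.064 and 0.046 for the 2 subunits.

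No p53 target of the lists was called by edgeR between the knockouts with all libraries in the fit. DESeq2 called 1 target of arrest and feedback higher and 1 lower, 1 of cell death higher and 1 of repair lower. Of all genes DESeq2 called 2.17%. Among 32 p53 targets of arrest and feedback the median log2 fold change between the knockouts was 0.095, while it was 0.92 in the Ttf1 and 1.00 in the Zfp622 knockout against the shared wild type. Cdkn1a, the p53 target that inhibits cyclin-dependent kinases, stood at 319 ± 69.5 against 298.5 ± 69.7 CPM, with a log2 fold change of 0.10 and a 95% interval from -0.33 to 0.52 (adjusted p 0.864). Mdm2, the ubiquitin ligase of p53, stood at 230.3, 220, 172.6 and 181.7 CPM against 152.6, 136.3, 146.1 and 241.8 CPM (0.25, adjusted p 0.553). The fourth Zfp622 library was above all others, and without it Mdm2 was called higher in the Ttf1 knockout (0.47, adjusted p 0.0462). Ccng1 (-0.05) and Trp53inp1 (0.23), further p53 targets, were not called either. The 27 targets of cell death had a median of 0.072 and the 30 of repair 0.010. Gpx1, the glutathione peroxidase, came closest to the threshold among them, at 382 against 493 CPM (-0.37, adjusted p 0.0523). Plk3, a stress kinase, followed at 20.8 ± 5.00 against 34.8 ± 6.0 CPM (-0.74, adjusted p 0.0618, DESeq2 0.00227).

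Lists of growth and metabolism mostly had medians below 0, with no member called by edgeR. Over all genes tested 49.6% lay below 0, 6.26% were nominally lower and 6.92% nominally higher. Whether a list differed from these shares was not tested. DNA replication genes had a median of -0.10, with 43 of 57 below 0, 14 nominally lower and 2 nominally higher; without chromosome 2 the median was -0.083. The 47 proteasome genes had a median of -0.065 (8 nominally lower, 1 higher). Those on chromosome 2 numbered 6, among them Psmd5 (-0.34) and Psmc3 (-0.29), and without them the median was -0.030. Glycolysis genes had a median of -0.15 (of 21 members 5 nominally lower, 2 higher), with the glucose transporter Slc2a1 at 21.5 against 31.7 CPM (-0.56, adjusted p 0.0707). The 49 heat shock and folding genes had a median of -0.049 (11 nominally lower, 4 higher), with the chaperonin subunit Hspe1 at 124 against 169 CPM (-0.44, adjusted p 0.0811). Genes of endoplasmic reticulum folding had a median of -0.14, with 27 of 39 below 0, 7 nominally lower and 1 nominally higher, the stress sensor Atf6 (0.48, adjusted p 0.0712). The 14 tested interferon response genes had the lowest median of the lists drawn, -0.24, with 12 below 0 but only Irf3 and Ddx58 nominal, in opposite directions. Against wild type that list stood at -0.11 in the Ttf1 and 0.46 in the Zfp622 knockout. Genes of the mitochondrial genome had a median of 0.15, with 13 of 15 above 0 and mt-Nd5 and mt-Nd6 nominally higher.

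Genes of the first lineage decisions were also not called by edgeR. Nanog, the factor of the pluripotent inner cells, stood at 183.3, 104.4, 163.9 and 310.7 CPM in the Ttf1 knockout and at 354.8, 319.7, 456.8 and 195.6 CPM in the Zfp622 knockout. The groups overlapped only through the fourth Ttf1 library, which lay above the fourth Zfp622 library, and all 8 lay below wild type (620 ± 32.6 CPM). Its log2 fold change was -0.80 with a 95% interval from -1.53 to -0.07, adjusted p 0.341. Pou5f1, which maintains pluripotency, stood at 106.5 against 104.6 CPM, Cdx2, the trophectoderm factor, at 4.55 against 4.93 CPM, Gata3, another trophectoderm factor, at 44.1 against 44.2 CPM, and Gata6, the primitive endoderm factor, at 97.2 against 83.9 CPM. Sox2 was near the lower end of detection, at 0.764 against 0.755 CPM.

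The 35 pluripotency genes had a median of -0.081, the 35 trophectoderm genes -0.090 and the 21 primitive endoderm genes 0.034. Tspan8, a tetraspanin, stood at 22.7 ± 2.35 against 13.7 ± 0.98 CPM (0.73, adjusted p 0.0624) and had the smallest p among these. The 26 genes of the Hippo pathway, which reads cell position in the morula, had a median of 0.18, with 21 above 0. Nominally higher were 6 of them and nominally lower 1, beside 6.92% and 6.26% of all genes. The tight junction scaffold Tjp1 stood at 40.2 against 29.9 CPM (0.42, adjusted p 0.0705). Oocyte genes (0.097) and genes of the 2-cell stage (0.14) had no member called between the knockouts, while their medians against wild type were 1.22 and 1.25 in the Ttf1 and 1.12 and 1.16 in the Zfp622 knockout.

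**Figure D5:**
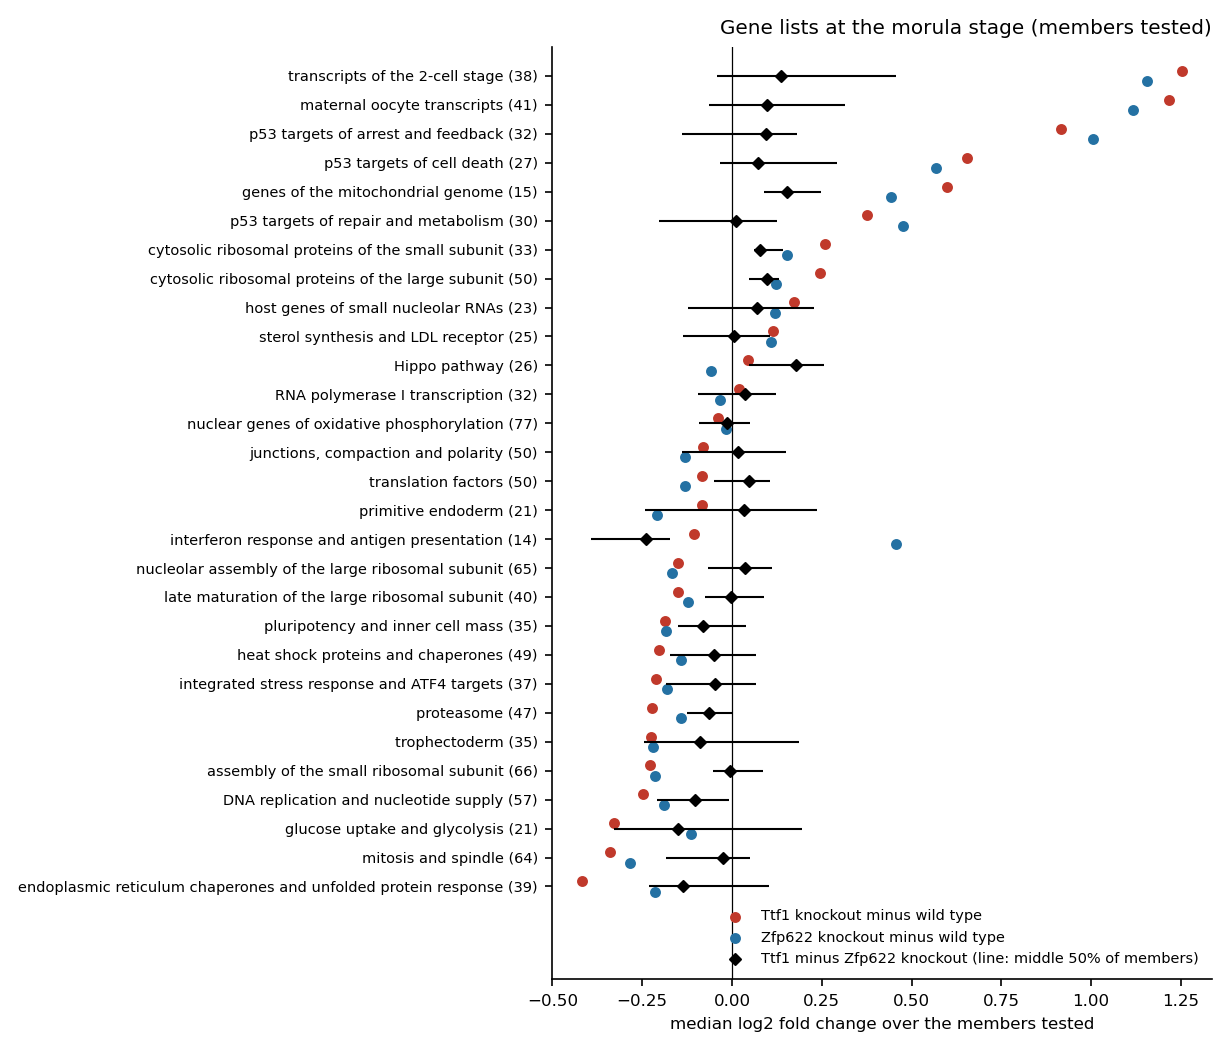
Median log2 fold change over the tested members of each pathway list, without the list of Y-linked genes and Xist and without the cell type markers, between the knockouts (black, with a line over the middle 50% of members) and for each knockout against the shared wild-type libraries (red and blue). The medians drawn between the knockouts lie within 0.25 of 0, while the p53 arrest list, at 0.92 and 1.00, and the oocyte list, at 1.22 and 1.12, lie far from 0 against wild type.

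Some measures of the libraries moved with the knockout or between libraries of one knockout, and their part in the results was not tested. The 511 tested genes of the X chromosome had a median of 0.10, with 54 nominally higher (10.6%, beside 6.92% of all genes), 11 nominally lower (2.15%, beside 6.26%) and 2 called (0.391%, beside 0.229%), Ccnb3 and A730046J19Rik. The level of the X differed between libraries within each group, from -0.078 to 0.226 in the Ttf1 and from -0.219 to 0.190 in the Zfp622 knockouts (difference 0.112, exact permutation p = 0.343). Xist, the RNA of the inactive X, stood at 184, 346.8, 283.8 and 225.9 CPM against 135.2, 237.5, 129.4 and 40.9 CPM (exact permutation p = 0.0857, chosen after its values were seen). The summed Y-linked genes had means of 132 and 163 CPM (exact permutation p = 0.457).

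The share of counts from the mitochondrial genome was 3.47% ± 0.253 in the Ttf1 and 3.17% ± 0.406 in the Zfp622 knockout (exact permutation p = 0.286). Summed markers of cumulus and granulosa cells ran from 25.9 to 36.1 and from 25.3 to 30.8 CPM, with 22 of 29 under 1 CPM in all 12 libraries and 2 at 0. Amhr2 made up most of it, at 21.6 against 20.9 CPM. Summed sperm markers ran from 19.1 to 26.1 and from 24.5 to 30.4 CPM (exact permutation p = 0.0571), with 18 of 21 under 1 CPM and Tnp1, Smcp and Hmgb4 at 0. Most of that sum was Odf2, a gene of chromosome 2, at 17.2 against 23.1 CPM. Summed blood markers ran from 25.9 to 40.8 and from 31.8 to 41.7 CPM, with 16 of 19 under 1 CPM and Fcer1g, S100a8, S100a9 and Hbb-bt at 0. Cd68 made up most of the blood sum, at 18.2 against 23.7 CPM. Markers of the morula itself summed to 6390 to 7432 and 6761 to 7925 CPM, with none at 0. Nearly all of this was Dppa3, at 6056 against 6332 CPM, so the sum says little of the other markers.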

How the data were processed

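Polyadenylated RNA from pools of 10 embryos was turned into cDNA with oligo-dT priming and template switching, amplified and read as 150-base pairs, per the labels' protocols. The authors aligned reads with HISAT2 2.2.1 to GRCm38, per the submitters' processing notes, and deposited whole-number counts per gene made with featureCounts 2.0.1, without strand and without reads that match several places, per the file headers. Of 55471 gene identifiers, which follow Ensembl release 99, 55144 had a symbol in GENCODE M21, whose coordinates were identical for 54900.

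Groups followed the titles, 4 libraries each. The 12 morula libraries were fitted together with edgeR 4.0.16 (R 4.3.3, limma 3.58.1; filterByExpr, TMM scaling, robust quasi-likelihood test), with p-values adjusted by Benjamini-Hochberg over all 14865 genes kept; the late 2-cell libraries were fitted likewise. Single values per library were compared by exact two-sided permutation (SciPy 1.17.1). The scripts were tested on simulated counts. Alternatives were DESeq2 1.42.0, other scalings, no filter, no robust fit, a replicate block, 8 or 24 libraries, a fold threshold of 2, and each library left out. Genes were named by rule: both targets, the 12 largest called rises and falls at 5 CPM or more without overlap and with an established symbol, the 4 largest each way on chromosomes 2 and 15, neighbours within 500 kb, and selected p53 and lineage genes; genes with the smallest p in a list that had none called were chosen after their values were seen. The comparison, the 33 gene lists and the rules were chosen with earlier results of these data known.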

Additional observations from a re-analysis of the deposited data

Results flagged for a closer look

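Of 102 sets of 4 libraries of the named genes, 3 held a library far from the other 3 by Dixon's criterion, where chance alone gives about 1 set in 20; all 3 were in the Zfp622 knockout. Cstb, called lower in the Ttf1 knockout, had its lowest Zfp622 library at 593.3 CPM, library 3. Mdm2, which was not called, had its highest Zfp622 library at 241.8 CPM, library 4; without that library it was called higher in the Ttf1 knockout (0.47, adjusted p 0.0462). Ccnb3, called higher in the Ttf1 knockout, had its lowest Zfp622 library at 1.27 CPM, library 1.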

How the results depend on the processing

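Calls between the knockout morulae numbered 323 with DESeq2, 368 with no filter on low counts, 57 with all 24 libraries, 9 with the 8 knockout libraries and 8 at 2-fold or more, against 34; with 1 library left out they ran from 2 to 150. On chromosome 2 they numbered 47 (DESeq2), 38 (no filter), 2 (8 libraries) and 0 (2-fold), and 1 to 20 with 1 library left out. On chromosome 15 they numbered 10 (DESeq2), 12 (no filter), 1 (no robust fit) and 2 (24 libraries), and 0 to 7. List members called numbered 33 (DESeq2), 3 (total counts), 31 (no filter), 2 (no robust fit), 6 (24 libraries) and 0 (2-fold), and 1 to 20. Late 2-cell calls numbered 73 (DESeq2), 84 (no filter) and 20 (24 libraries), and 1 to 8. The cause of these moves was not tested. The replicate numbers did not pair the libraries (correlations of same-numbered deviations 0.0916, -0.0129, 0.0186 and -0.125); with the replicate block the calls were 15 in morulae, 5 on chromosome 2 and 3 at the late 2-cell stage.

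The distal median of chromosome 15 was 0.0126 under total counts and ran from 0.0285 to 0.0737 with 1 library left out, and its level difference from 0.0365 to 0.0610. The chromosome 2 level difference ran from -0.2075 to -0.1412, each at the smallest exact permutation p of 3 against 4 libraries, 0.0571. Genes near 0 changed sign, none of them called: Gata3 (0.00313 with 24 libraries), Pou5f1 (-0.00901 under total counts) and Sox2 (-0.058 with the replicate block). With 1 library left out Gata3 ran from -0.15 to 0.080, Pou5f1 from -0.022 to 0.078, Sox2 from -0.66 to 0.31, Ccng1 from -0.17 to 0.13, Tsc1 from -0.00357 to 0.16 and Cdkn1a from -0.050 to 0.26. At this depth and spread, differences under about 0.40 on the log2 scale lay within a 95% interval of the median width over all genes tested. Genes with narrower intervals were called at smaller differences, such as Ubb (-0.31, 95% interval -0.43 to -0.18).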
